A study of Mus musculus with 12 samples.

Results

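The urea cycle converts ammonia, which is toxic, into urea for excretion, and the liver is its main site. The genes described here are 8 of the 31131 genes in the deposited gene lists: the 5 enzyme genes of the cycle, Cps1, Otc, Ass1, Asl and Arg1, Nags, whose product activates it, and the genes of the mitochondrial carriers that serve it, Slc25a15 and Slc25a13. The rule chose them by name and used no measured value, though earlier results of these data were known, and all 8 were in both stages' gene lists and passed the filter on low counts in hepatocyte-like cells. In the mitochondrion, N-acetylglutamate synthase (Nags) makes the activator without which carbamoyl phosphate synthetase (Cps1) is inactive, Cps1 joins ammonia and bicarbonate, and ornithine transcarbamylase (Otc) passes the product to ornithine to give citrulline. In the cytosol, argininosuccinate synthetase (Ass1) joins citrulline with aspartate, argininosuccinate lyase (Asl) splits the product into arginine and fumarate, and arginase (Arg1) releases urea and returns ornithine. Slc25a15 (the ornithine carrier, ORC1) moves ornithine into and citrulline out of mitochondria, and Slc25a13 (citrin) exports aspartate in exchange for glutamate. In adult liver the cycle is strongest in hepatocytes around the portal veins, and it is known to mature around birth.

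Livers of late mouse embryos (E16.5, named by embryonic day) and of pups 3 days after birth (P3) were dissociated and profiled by droplet single-cell RNA sequencing, which counts unique molecular identifiers (UMIs), a tag for each captured RNA molecule. The mice were Jag1+/+, Jag1Ndr/+ or Jag1Ndr/Ndr and came from crosses of Jag1Ndr/+ parents, Jag1Ndr (Nodder) being a missense allele of a Notch ligand gene that models Alagille syndrome. The labels gave 2 replicates for each of 6 combinations of stage and genotype. Per the labels' protocols, jaundice was the sign by which Jag1Ndr/Ndr pups were chosen at P3, magnetic beads depleted dead cells at both stages, and the enzyme mix included TrypLE for embryos but not for pups.

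The 12 matrices held 9 distinct libraries, because matrices shared cell barcodes. At E16.5 there were 5: Jag1+/+ replicate 1, Jag1Ndr/+ replicate 1, Jag1Ndr/Ndr replicates 1 and 2, and a library deposited identically as Jag1+/+ replicate 2 and Jag1Ndr/+ replicate 2, called the shared library. At P3 there were 4. Libraries A and B were labelled Jag1+/+ replicates 1 and 2, but 68.4% and 73.8% of their barcodes also stood under Jag1Ndr/Ndr labels, and 15754 barcodes of library B stood under a Jag1Ndr/+ label as well, so their genotype is unclear. Library C was the remainder of the matrix labelled Jag1Ndr/Ndr replicate 1, and library D was Jag1Ndr/+ replicate 1. Each library kept 14332 to 21064 cells, with a median of 2961 to 9256 UMIs per barcode that passed the filters. Libraries C and D stood apart from the others in ribosomal protein genes: Rps12 was at 37.5 and 14.7 in counts-per-million (CPM) values in them and at 1961 to 4041 in the other 7. In 2 of the E16.5 libraries, Jag1Ndr/Ndr replicate 2 and Jag1Ndr/+ replicate 1, Xist exceeded the Y-linked Ddx3y, and the reverse held in the other 3. Calls of the members by stage are therefore given with and without A and B and with and without C and D, and in hepatocyte-like cells and over all cells also without the 2 libraries high in Xist. Stage cannot be told apart from the digestion, the software version or the gene list, which all differed between the stages.

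Hepatocyte-like cells were 2 clusters per stage whose leading genes included Alb, Afp, Ahsg and Fgb at E16.5 and Alb, Apoa2 and Fabp1 at P3. All 12 hepatocyte markers were detected in every library. The class held 150 to 530 cells per library, 2.22 to 2.74% of kept cells at E16.5 and 2.71, 1.83, 1.05 and 0.979% in libraries A to D. In 1 of the clusters at each stage hemoglobin made up a median of 36.8% (E16.5) and 72.0% (P3) of UMIs, against 4.11% and 0.509% in the other, called the low-hemoglobin cluster below. Summed over 10 erythroid markers, the class held 115181 to 231563 CPM at E16.5 and 148537 to 287446 CPM at P3, with no marker at 0, and the part of this in the results on the whole class was not tested. The members themselves were kept out of the genes used for clustering. Levels are CPM, UMIs scaled to the library's or class's total over the genes common to both lists, summed over the cells of a class in a library. They are counts of tagged molecules and were compared within a gene, not between genes.

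The sequences upstream of Otc and Ass1 are shown because they differ most in CG content among the single-entry members. The RefSeq promoter set used here (GRCm38.p6) held entries for 5 of the 8 members, 6 in all. The 250 bases before the start given by each entry were searched on both strands. Capitals mark each CG, the dinucleotide that carries most DNA methylation in mammals. Otc lies on chromosome X (GRCm38, chrX:10252305-10321024, plus strand), and its window is chrX:10252055-10252304. Ass1 lies on chromosome 2 (chr2:31470207-31520672, plus strand), and the bases of its window before the annotated gene are chr2:31470020-31470206.
Otc: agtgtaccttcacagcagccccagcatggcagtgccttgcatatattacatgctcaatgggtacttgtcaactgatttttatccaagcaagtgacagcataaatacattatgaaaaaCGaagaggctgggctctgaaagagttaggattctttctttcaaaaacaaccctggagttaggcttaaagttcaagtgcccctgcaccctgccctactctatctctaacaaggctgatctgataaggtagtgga
Ass1: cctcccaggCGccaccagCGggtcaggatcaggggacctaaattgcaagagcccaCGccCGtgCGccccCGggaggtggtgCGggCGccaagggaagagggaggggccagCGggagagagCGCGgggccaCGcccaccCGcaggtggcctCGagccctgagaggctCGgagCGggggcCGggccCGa
The Otc window held 1 CG and 43.6% G or C, and the whole 250-base window of Ass1 held 23 CG and 75.6% G or C. The median over all 32851 promoter entries was 6 CG, with quartiles of 2 and 16. Nags and Slc25a13 each had 11 CG, and the 2 entries of Slc25a15 had 11 and 43, the window with 43 lying inside the annotated gene. The letters TATAAA were in none of the 5 members' windows and in 12.4% of all windows, CCAAT was in Slc25a13 and in 33.8% of all, and TTNNGNAA was in Otc and Nags and in 36.8% of all. These are matches of letters and show no binding. The other members lie at chr1:67123026-67231259 (Cps1, plus strand), chr5:130011258-130029247 (Asl, minus), chr10:24915221-24927484 (Arg1, minus), chr11:102145513-102149477 (Nags, plus), chr8:22375551-22398597 (Slc25a15, minus) and chr6:6041218-6217173 (Slc25a13, minus). All 8 are protein coding in GENCODE M21.

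In hepatocyte-like cells, 4 of the 8 urea cycle genes were higher at P3 than at E16.5 and none was lower: Asl, Arg1 and the carriers Slc25a13 and Slc25a15. The first step, Cps1, and its activator Nags did not pass the test, and Otc and Ass1 missed the threshold in the fit of all libraries. In this comparison 38.4% of the 10222 genes tested were called in either direction, and 20.4% were called higher and 18% lower. The members' median log2 fold change was 0.86, against -0.02 over all genes tested. The test was edgeR's quasi-likelihood test on summed counts of 5 against 4 libraries, with Benjamini-Hochberg adjustment over all genes and a threshold of 0.05. DESeq2 called 5 members, with 38.2% of genes called. The design text gives 2 individuals per genotype and stage, but with barcodes shared between matrices the p-values measure only the spread between these 9 libraries.

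**Figure D1:**
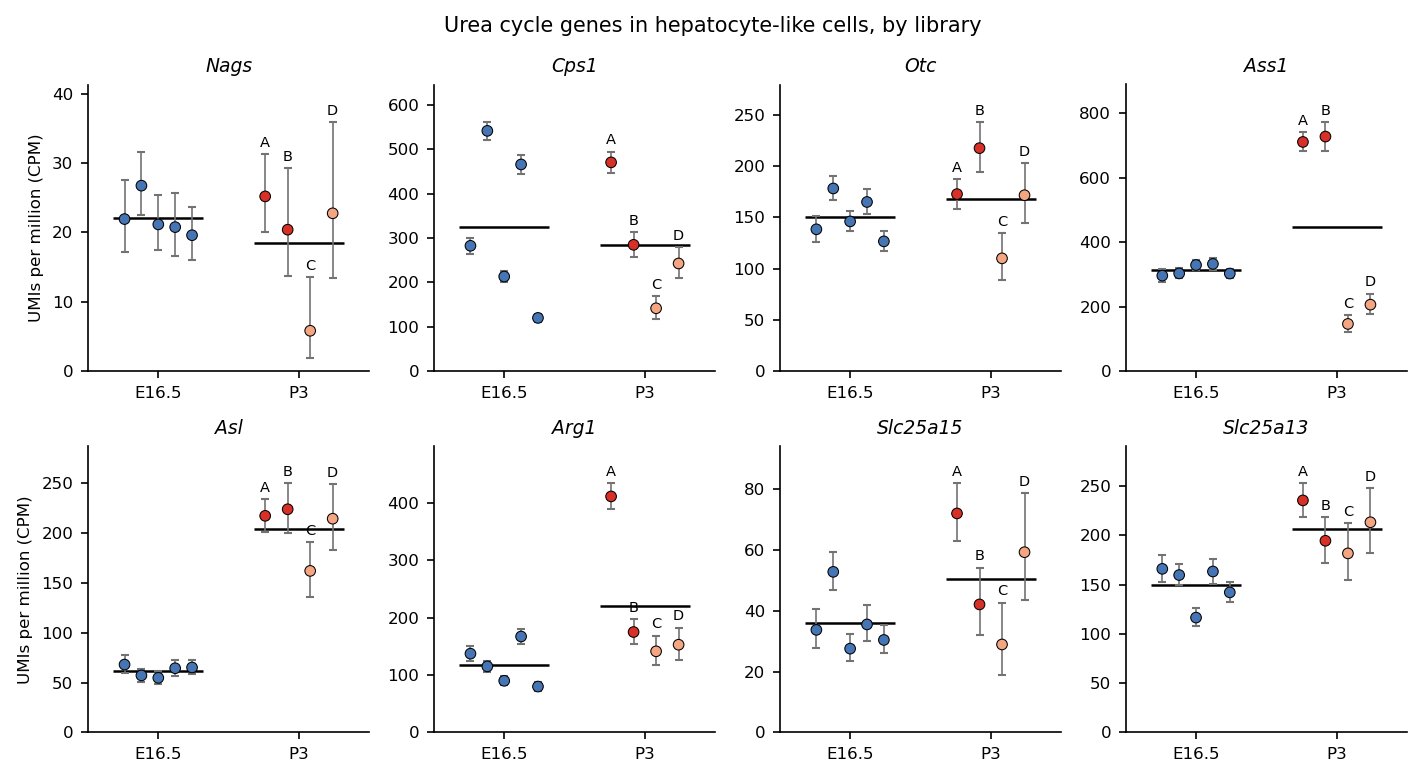
CPM (vertical axes, linear from 0) of each urea cycle gene in hepatocyte-like cells, 1 point per library, with 95% exact Poisson intervals of the count and the group mean as a line. The 5 E16.5 libraries are blue, P3 libraries A and B red, and C and D light orange. Asl and Slc25a13 do not overlap between stages, and Ass1 is at 711 and 728 CPM in libraries A and B and at 146 and 206 CPM in C and D.

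Among the mitochondrial enzymes, Nags was at 21.9, 26.7, 21.1, 20.7 and 19.6 CPM at E16.5, in an order kept below: replicate 1 of Jag1+/+, the shared library, replicate 1 of Jag1Ndr/+, then replicates 1 and 2 of Jag1Ndr/Ndr. At P3 it was at 25.2, 20.4, 5.79 and 22.7 CPM in libraries A, B, C and D. The stages overlapped, and library C, with 5 Nags UMIs, was the lowest of all 9. The means were 22.0 ± 2.76 (SD, n = 5) and 18.5 ± 8.71 (SD, n = 4), and the log2 fold change was 0.21 (SE 0.256, edgeR adjusted p = 0.546).

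Cps1 was at 282, 542, 213, 466 and 120 CPM at E16.5. Its highest library was 4.53-fold above its lowest, the widest spread of the 8 genes at that stage, and the Jag1Ndr/Ndr libraries held both the second highest and the lowest value. The 2 libraries high in Xist were the 2 lowest, at 213 and 120 CPM, and the part of this in the spread was not tested. At P3 Cps1 was at 471, 285, 141 and 242 CPM, all within the E16.5 range. The means were 324 ± 176 (SD, n = 5) and 285 ± 138 (SD, n = 4). The log2 fold change was 0.21 (SE 0.401, edgeR adjusted p = 0.705), and its sign was not stable: it was -0.18 on library totals, -0.54 without P3 libraries A and B, -0.20 without the libraries high in Xist and -0.23 to 0.42 with each library left out in turn.

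Otc was at 138, 178, 146, 165 and 127 CPM at E16.5 and at 173, 218, 110 and 172 CPM at P3. The P3 libraries lay on both sides of the E16.5 range, with B above it and C below it. The log2 fold change was 0.51 (SE 0.192), and the edgeR adjusted p of 0.0503 lay just outside the threshold. Without library C it was 0.00871. In the low-hemoglobin clusters Otc was at 193 and 213 CPM in C and D, within the E16.5 range of 173 to 222 CPM. Libraries A and B were above that range there, at 251 and 342 CPM.

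Ass1 behaved differently in the P3 libraries. It was at 296, 303, 329, 332 and 302 CPM at E16.5, a spread of 1.12-fold, the narrowest of the 8 genes. At P3 it was at 711 and 728 CPM in libraries A and B and at 146 and 206 CPM in C and D. No P3 library fell within the E16.5 range: A and B lay above it and C and D below it. The mean of A and B was 4.09-fold that of C and D, and the log2 fold change over all libraries was 0.91 (SE 0.406, edgeR adjusted p = 0.0925). It passed without library C (adjusted p = 0.0151) or without library D (adjusted p = 0.0287).

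Asl showed the clearest stage difference. It was at 68.1, 57.2, 54.8, 64.4 and 65.2 CPM at E16.5 and at 218, 224, 162 and 215 CPM at P3. Every P3 library was above every E16.5 library. The means were 62.0 ± 5.67 (SD, n = 5) and 205 ± 28.5 (SD, n = 4), a 3.30-fold ratio of mean CPM, and the log2 fold change was 2.07 (SE 0.157, edgeR adjusted p = 5.04e-07).

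Arg1 was at 137, 115, 89.9, 167 and 79.9 CPM at E16.5, where the 2 libraries high in Xist were again the 2 lowest, and at 411, 175, 141 and 153 CPM at P3. Library A was far above the rest, and libraries C and D lay within the E16.5 range. The log2 fold change was 1.30 (SE 0.332, edgeR adjusted p = 0.00729). Without library A it was 0.70 (adjusted p = 0.0330), and without both A and B it was 0.54 and did not pass (adjusted p = 0.152).

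For the carriers, Slc25a13 was at 166, 159.8, 117, 163 and 142 CPM at E16.5 and at 236, 195, 182 and 213 CPM at P3. The stages did not overlap, and the log2 fold change was 0.82 (SE 0.153, edgeR adjusted p = 0.00101). Slc25a15 was at 33.8, 52.9, 27.6, 35.6 and 30.4 CPM at E16.5 and at 72.1, 42.1, 29.0 and 59.3 CPM at P3. Its stages overlapped, with the shared library of E16.5 above P3 libraries B and C. The log2 fold change was 0.90 (SE 0.241, edgeR adjusted p = 0.00961), and without library A it did not pass, at 0.55 (adjusted p = 0.0889). For both carriers the 2 libraries high in Xist were the 2 lowest at E16.5, and Slc25a15 was not called without them. Asl and Slc25a13, 2 of the 8 genes, were higher without overlap between stages in CPM. Of all genes tested, 35.4% did not overlap, 9.22% being higher and 26.1% lower at P3.

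**Figure D2:**
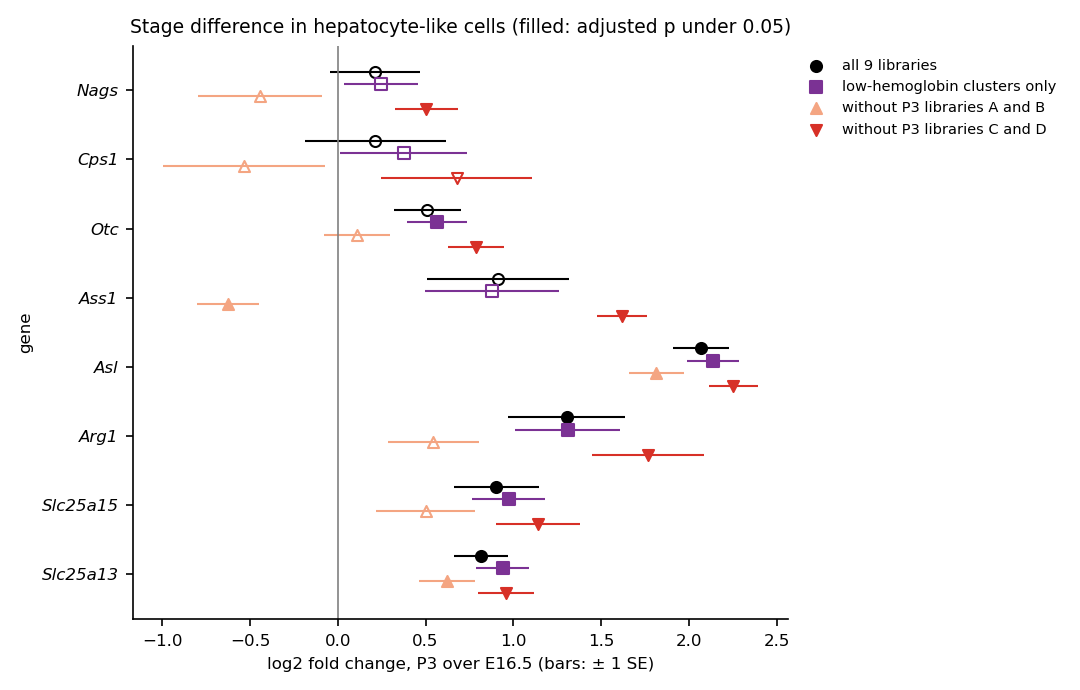
Log2 fold change of P3 over E16.5 in hepatocyte-like cells (horizontal axis, bars 1 SE) for each gene in 4 fits: all 9 libraries, low-hemoglobin clusters only, and all cells of the class without libraries A and B or without C and D. Filled symbols have an edgeR adjusted p under 0.05. Asl and Slc25a13 are filled and positive in all 4, and Ass1 is positive without C and D and negative without A and B.

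The choice of P3 libraries decided which steps of the cycle differed by stage. Without libraries A and B, 3 members were called, with 23% of all genes called: Asl at 1.81 and Slc25a13 at 0.62 were higher on the log2 scale, and Ass1 was lower at -0.62 (edgeR adjusted p = 0.0251). Without C and D, 7 members were called higher, with 34% of all genes called and 18.4% called higher: only Cps1 was not, at 0.68 (adjusted p = 0.251). In that fit Ass1 was at 1.62 (adjusted p = 1.46e-05), Otc at 0.79 (adjusted p = 0.00334) and Nags at 0.51 (adjusted p = 0.0465). In CPM, however, Nags in A and B, at 25.2 and 20.4, lay within the E16.5 range of 19.6 to 26.7. The fit was not run on library totals, so the part of the scaling between libraries in the Nags call was not tested. Without the 2 E16.5 libraries high in Xist, Asl and Slc25a13 were the 2 members called, with 29.6% of genes called. Asl and Slc25a13 were higher at P3 in these 3 fits and in the fit of all libraries.

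In the low-hemoglobin clusters alone, 5 members were higher and none lower, with 41.6% of 9789 genes called in either direction and 21.1% called higher. Otc joined the 4 above, at 0.57 on the log2 scale (SE 0.172, edgeR adjusted p = 0.0168). Ass1 was at 1038 and 1116 CPM in libraries A and B and at 238 and 245 CPM in C and D, with 378 to 482 CPM at E16.5. The split of Ass1 between the P3 libraries was thus as large without the cluster rich in hemoglobin, at 4.46-fold between the means of A and B and of C and D. In the same cells the summed CPM of 14 neutrophil markers was 6709 and 8937 in A and B and 2172 and 972 in C and D, with 1 of them at 0 in each of C and D, and 2544 to 7631 at E16.5, and that of the 12 hepatocyte markers was 117842 and 111162 in A and B and 172727 and 173204 in C and D. In the cells of other classes the order of Ass1 differed. Libraries A and B were both above C and D in B-, T and NK-, neutrophil-, endothelial-, macrophage- and erythroid-like cells. In B-like cells, though, libraries B and C lay close together. They were not both above C and D in monocyte-, basophil and mast- and dendritic-like cells or in a cluster left unnamed. In macrophage-like cells Ass1 was at 23.3, 22.6, 7.54 and 3.59 CPM in libraries A to D and in erythroid-like cells at 7.58, 6.21, 2.54 and 1.31 CPM. In monocyte-like cells it was at 61.8, 76.7, 80.1 and 62.6 CPM. The part of these differences in the Ass1 result was not tested.

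The share of cells with at least 1 UMI was also compared, after thinning each low-hemoglobin hepatocyte-like cell to 2000 UMIs. This left out 109, 75 and 31 shallower cells of libraries A, B and D. Asl was then found in 10.7 to 17.4% of cells at E16.5 and in 54.4, 55.7, 40.0 and 45.8% in libraries A to D. In erythroid-like cells, given for comparison, the share was 0.734 to 1.40% after the same thinning. Asl made up 18.1 to 37.6% of the members' UMIs there at P3 and Cps1 0.637 to 7.66%, against 9.39 to 17.7% and 15.1 to 20.3% in hepatocyte-like cells. At E16.5 the shares of Otc and Ass1 lay close: Otc made up 14.5 to 16% in erythroid-like and 11.7 to 14.6% in hepatocyte-like cells, and Ass1 22.6 to 28.3% and 21.1 to 34.1%. Asl made up 8.56 to 11.8% in erythroid-like and 3.99 to 7.36% in hepatocyte-like cells at E16.5, without overlap. Cps1 made up 7.67 to 22.3% and 13.5 to 37.8%, lowest in replicate 2 of Jag1Ndr/Ndr and highest in its replicate 1 and the shared library in both classes. The part of hepatocyte RNA in the erythroid-like values was not tested. Without thinning, Asl was found in 63.1 to 82.6% of cells at E16.5 and in 64.9 to 76.0% at P3, and in 1.57 to 3.79% of erythroid-like cells. The unthinned cells had median depths of 18126.5 to 27800 UMIs at E16.5 and 2045 to 8588 at P3, against 2648 to 9178 in erythroid-like cells. Ass1 was found in 43.0 to 52.7% of thinned cells at E16.5, in 87.0 and 87.3% in libraries A and B, and in 46.0 and 45.8% in C and D, with 0.24 to 3.25% in erythroid-like cells. Unthinned, Ass1 was found in 86.0 to 95.3% at E16.5 and in 93.9, 87.0, 76 and 60% in A to D, with 0.406 to 8.64% in erythroid-like cells. In the thinned shares, C and D lay within the E16.5 range, while their Ass1 CPM lay below it, so no order of C and D against E16.5 was read from the shares. Cps1 was found in 21.7 to 66.8% of thinned cells at E16.5 and 31.6 to 47.3% at P3, with overlap. Unthinned, the ranges were 63.0 to 98.6% and 29.9 to 72.0%, and erythroid-like cells had 0.0144 to 2.96% thinned and 0.0576 to 8.47% unthinned.

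Cells of libraries A and B fell into different parts by the share of their UMIs on the 12 hepatocyte markers. Among the low-hemoglobin cells, 105 in library A and 47 in library B had under 5% of UMIs on these markers, and 173 and 107 had at least 5%. The median share was 3.06% and 10.8% in the parts of A, and the median depth was 1640 and 4835 UMIs. Libraries C and D had 2 and 12 cells under 5%. No kept cell of library C or of the E16.5 libraries, in any class, had under 2000 UMIs. Cells as shallow as the lower part of A, by its median, were thus absent from these libraries. The part of this in the counts under 5% was not tested. The parts are ranges of a score, not cell types, and 54 cells of A and 37 of B lay between 4 and 6%. In the stage fit of all cells of a library with at least 5% of UMIs on the markers, 5 members were higher and none lower, with 42.2% of all genes called. Otc passed there at 0.48 (edgeR adjusted p = 0.0242), and Cps1 did not pass, at 0.45 (adjusted p = 0.370), with a ratio of mean CPM of 1.23 at P3 over E16.5 against 0.877 in the whole class.

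**Figure D3:**
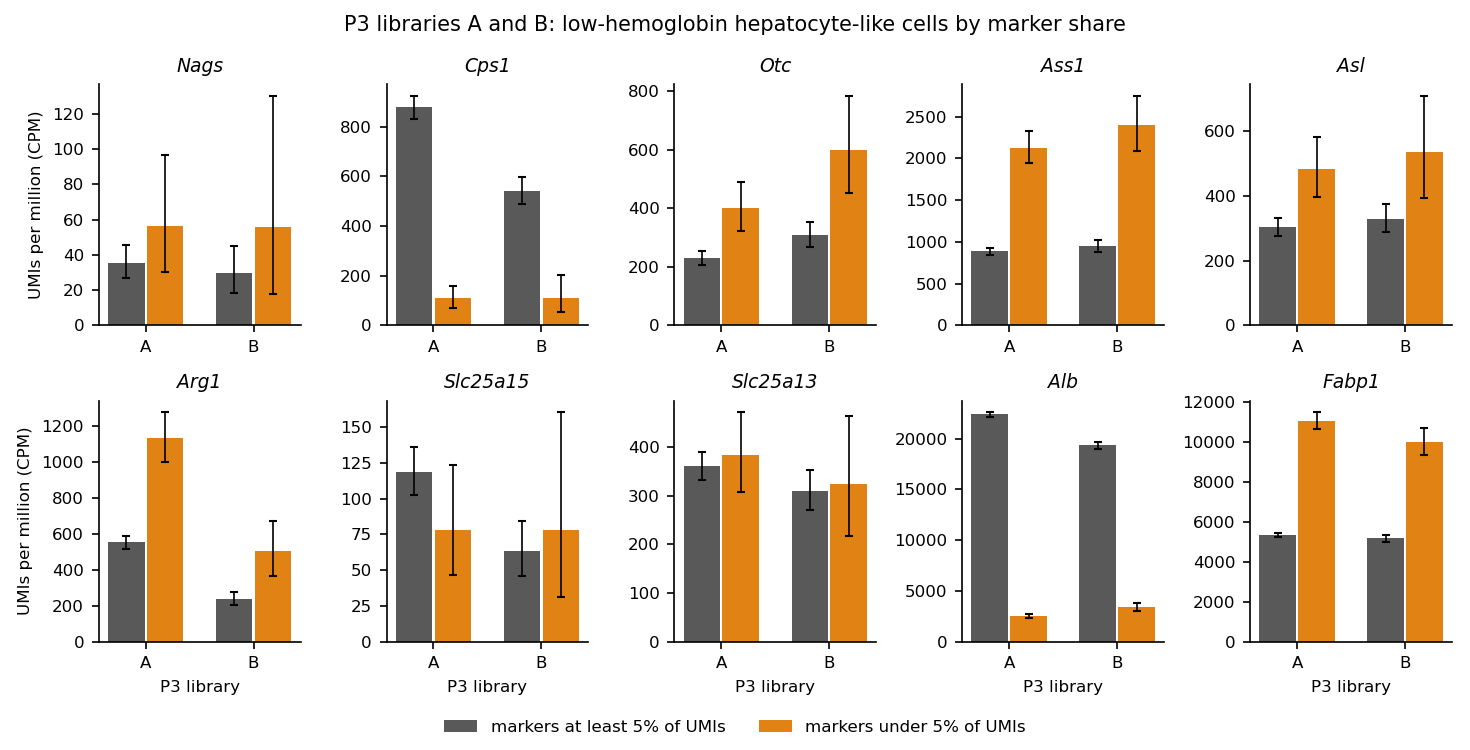
CPM (vertical axes, linear from 0) of the 8 members and of Alb and Fabp1 in low-hemoglobin hepatocyte-like cells of P3 libraries A and B, split at 5% of UMIs on 12 hepatocyte markers; bars are sums over cells with 95% exact Poisson intervals, which cover counting error only. Cps1 is lower and Ass1 higher in the cells under 5% in both libraries.

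In the cells under 5%, Cps1 was at 109 and 111 CPM in libraries A and B, against 877 and 540 CPM in the cells at or above 5%. Ass1 went the other way, at 2131 and 2405 CPM under 5% against 887 and 953 CPM above. Arg1 was also higher under 5% in both libraries, at 1131 and 501 CPM against 552 and 239 CPM. So were Asl, at 483 and 535 CPM against 303 and 330 CPM, and Otc, at 400 and 601 CPM against 230 and 309 CPM. Each of these intervals was apart from that of the other part in its library. For Nags, Slc25a13 and Slc25a15 the intervals overlapped. Alb, a marker used for the split, was at 2552 and 3363 CPM under 5%, and Fabp1, a fatty acid binding protein gene not used for it, was at 11058 and 10012 CPM against 5347 and 5164 CPM. Cells of 1 library are not replicates, so no test was made between the parts.

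Over all kept cells, the stage differences ran mostly the other way. Otc, Cps1, Slc25a13 and Slc25a15 were lower at P3 and Asl was higher, with 53.1% of 14390 genes called in either direction, 25.9% lower and 27.2% higher. Otc was at 8.50, 14.4, 10.2, 9.59 and 9.09 CPM at E16.5 and at 6.07, 5.04, 2.1 and 2.94 CPM at P3. Every P3 library was below every E16.5 library, and the log2 fold change was -1.86 (SE 0.293, edgeR adjusted p = 0.000415). Cps1 was at 11.0, 31.4, 11.9, 19.7 and 6.60 CPM and at 11.9, 5.52, 1.74 and 3.36 CPM, with overlap, at -1.95 on the log2 scale (SE 0.545, adjusted p = 0.0112). Asl was at 8.04 to 10.4 CPM at E16.5 and 15.5 to 21.3 CPM at P3, without overlap, at 0.43 (SE 0.133, adjusted p = 0.0193). Of all genes tested over all cells, 42.1% did not overlap between stages in CPM, 35.8% being higher and 6.23% lower at P3. Slc25a13 was at -0.73 (adjusted p = 0.00129) and Slc25a15 at -0.52 (adjusted p = 0.0228), with overlapping libraries. Ass1 at -0.47 (adjusted p = 0.18), Arg1 at -0.84 (adjusted p = 0.131) and Nags at -0.19 (adjusted p = 0.615) did not pass. Leaving out library A changed 2 of these: without it Arg1 was lower at -1.68 (adjusted p = 0.000195) and Ass1 at -0.78 (adjusted p = 0.0216), and without A and B they were lower at -1.87 (adjusted p = 0.000379) and -1.14 (adjusted p = 0.00225). Both fits called 6 members lower and none higher, with 52.4 and 47.8% of all genes called and 25.8 and 24% called lower. DESeq2 also called 5 members, with 55.1% of genes called.

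**Figure D4:**
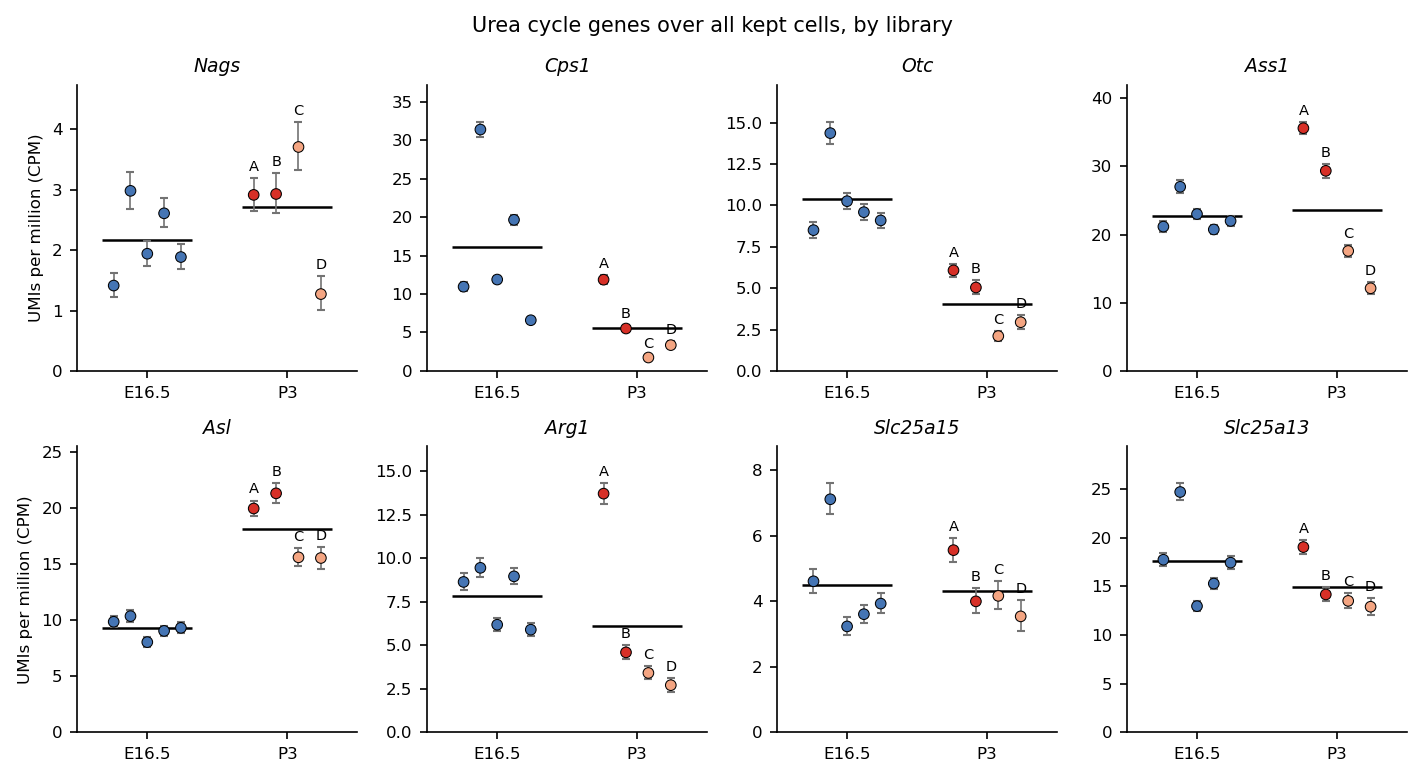
CPM (vertical axes, linear from 0) of each urea cycle gene over all kept cells, 1 point per library, with 95% exact Poisson intervals and the group mean as a line; colours as for the hepatocyte-like cells. Otc is lower and Asl higher in every P3 library than in every E16.5 library. Of all genes tested, 6.23% were lower and 35.8% higher in this way.

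The calls of Asl and Slc25a15 were the least stable: without library A Asl had an adjusted p of 0.0584 and without library B 0.0573, and Slc25a15 had 0.0659 without B, 0.0514 without C, 0.0612 without D and 0.0531 without the shared library. Without A and B, Asl was at 0.21 (adjusted p = 0.246) with 47.8% of genes called, and without C and D, Cps1 was at -1.32 (adjusted p = 0.0667) and Slc25a15 at -0.37 (adjusted p = 0.155) with 46.9% called. Asl also missed the threshold without the E16.5 libraries high in Xist (adjusted p = 0.0527). Otc and Slc25a13 passed in each of these fits. These sums mix cell types, so fewer hepatocytes and less RNA per hepatocyte cannot be told apart in them. The hepatocyte-like share of kept cells was lower in 3 of the 4 P3 libraries than in any E16.5 library. The scaling also mattered. On library totals in place of TMM factors, the median log2 fold change of all genes was -0.37 in hepatocyte-like cells and 0.53 over all cells. In hepatocyte-like cells that moved the shares of genes called higher and lower from 20.4 and 18% to 11.5 and 33.8%, with 45.3% called in all, and Slc25a15 lost its call (adjusted p = 0.101). Over all cells they became 45.9 and 8.92%, Asl was higher at 0.96, Otc and Cps1 were lower at -1.35 and -1.51, and both carriers lost their calls at -0.24 and -0.06, with 54.8% called in all.

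Outside hepatocytes, the mean level of every member was lower than in hepatocyte-like cells at the same stage. Cps1 was at 2.80 to 13.1 CPM in the other classes at E16.5 and Otc at 2.63 to 12.5 CPM, against means of 324 and 151 CPM in hepatocyte-like cells. At P3 the other classes had 0.650 to 6.32 CPM of Cps1 and 0.699 to 5.97 CPM of Otc. In erythroid-like cells, which have no urea cycle, Cps1 was at 7.10 ± 3.36 (SD, n = 5) at E16.5 and 1.07 ± 0.960 (SD, n = 4) at P3. Cps1 and Otc were lower at P3 in B-, basophil and mast-, erythroid-, macrophage-, monocyte- and neutrophil-like cells, at -3.13 to -1.38 and -2.91 to -0.82 on the log2 scale. Of all genes in these classes, 25.5, 23.8, 24.1, 25.9, 24.6 and 24.7% were called lower. Some of the P3 levels were at or near 0. Cps1 ranged from 0 to 2.44 CPM in basophil and mast-like, 0 to 2.63 CPM in monocyte-like and 0.979 to 5.80 CPM in macrophage-like cells. Otc ranged from 0 to 2.03 CPM in basophil and mast-like and 4.57 to 6.64 CPM in macrophage-like cells. The part of hepatocyte RNA in the levels of these classes was not tested. On library totals the calls of Otc in B-like (adjusted p = 0.0567), basophil and mast-like (0.0549) and macrophage-like cells (0.0827) and of Cps1 in macrophage-like cells (0.0694) were lost. Without libraries C and D, both genes lost their calls in B-like (adjusted p = 0.0898 for Cps1 and 0.179 for Otc), basophil and mast-like (0.16 and 0.148) and macrophage-like cells (0.241 and 0.102). Both were still called lower in erythroid-, monocyte- and neutrophil-like cells without C and D, and in all 6 classes without A and B.

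**Figure D5:**
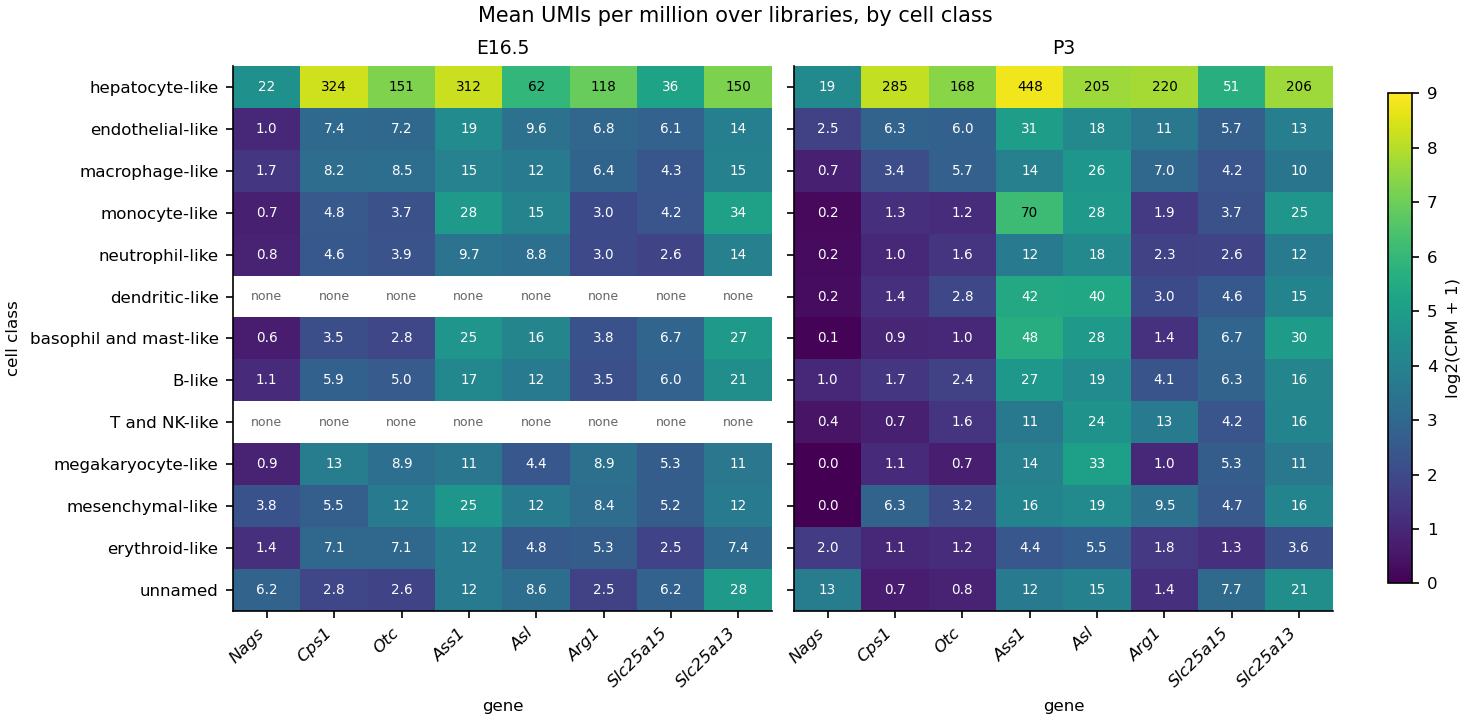
Mean CPM over libraries of each urea cycle gene (columns) in each cell class (rows) at E16.5 and P3; numbers are CPM, colour is log2(CPM + 1), and "none" marks a class without sums at that stage. The hepatocyte-like row is the highest in every column, and Ass1 in monocyte-like cells reaches 70 CPM at P3.

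Ass1 and Asl, the enzymes that remake arginine from citrulline, were measured in monocyte-like cells at mean levels above those of erythroid-like cells at both stages. In monocyte-like cells Ass1 was at 26.1, 26.1, 27.2, 31.7 and 26.8 CPM at E16.5 and at 61.8, 76.7, 80.1 and 62.6 CPM at P3. Every P3 library was above every E16.5 library, and the log2 fold change was 1.27 (SE 0.122, edgeR adjusted p = 1.01e-05), with 49.5% of genes called in that class, and it was 1.26 without libraries A and B and 1.27 without C and D. In erythroid-like cells of the same libraries Ass1 was lower at P3, at 11.9 ± 1.67 CPM (SD, n = 5) against 4.41 ± 2.97 CPM (SD, n = 4), so the rise in monocyte-like cells ran against the change in erythroid-like cells. Ass1 was also higher at P3 in basophil and mast-like cells, at 0.78 (adjusted p = 0.00326), with 46.7% of genes called there. At P3 dendritic-like cells had 42.0 ± 4.63 CPM of Ass1 and 39.7 ± 11.9 CPM of Asl (SD, n = 4).

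Asl was higher at P3 in 5 of the 7 other classes in which it was tested. It was at 0.50 on the log2 scale in B-like, 0.64 in basophil and mast-like, 0.76 in macrophage-like, 0.76 in monocyte-like and 0.86 in neutrophil-like cells, with 51.4, 46.7, 53, 49.5 and 50% of genes called in these classes and 25.9, 22.9, 27, 25 and 25.3% called higher. In monocyte-like cells it was at 12.9 to 18.8 CPM at E16.5 and at 26.7 to 29.4 CPM at P3. In erythroid-like cells, where 48.3% of genes were called and 24.2% called higher, it did not pass the test, at -0.33 on the log2 scale, and without libraries A and B it was lower there at -0.80 (adjusted p = 0.0415). Without A and B the call in B-like cells was lost, at 0.27 (adjusted p = 0.25), and the other 4 held without A and B and without C and D. The rise of Asl was larger in hepatocyte-like than in monocyte-like cells. The log2 ratio of CPM between the classes was 2.02 ± 0.149 (SD, n = 5) at E16.5 and 2.88 ± 0.208 (SD, n = 4) at P3, a difference of 0.86. This ratio used CPM without TMM factors, so 0.86 is not a difference of the edgeR log2 fold changes. The ratio was compared for the 6 members with at least 1 UMI in both classes in every library, after the stage differences within each class had been seen. An exact two-sided permutation test over libraries gave p = 0.0159 for Asl, the smallest that 5 against 4 allows, and 0.0238 after adjustment over the 6 genes. Slc25a13 at 0.91, Otc at 1.86 and Arg1 at 1.64 had the same p-values, the last 2 on 2 to 21 and 3 to 45 UMIs per library in monocyte-like cells at P3. The monocyte-like levels of Otc (means of 3.67 and 1.22 CPM at E16.5 and P3) and Arg1 (3.02 and 1.92 CPM) were not shown to be above those of erythroid-like cells (7.09 and 1.2 CPM for Otc, 5.30 and 1.84 CPM for Arg1), so no difference between the classes was read for these genes. Ass1 at -1.17 (exact permutation p = 0.0635, adjusted 0.0762) and Slc25a15 at 0.65 (exact permutation p = 0.0952, adjusted 0.0952) did not pass.

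Slc25a13, which takes part in the malate-aspartate shuttle of many cells as well as in the cycle, went in opposite directions by class. It was lower at P3 in monocyte-like cells, at 34.3 ± 6.30 CPM (SD, n = 5) against 24.9 ± 1.88 CPM (SD, n = 4), and the log2 fold change was -0.53 (edgeR adjusted p = 0.00196). It was also lower in B-like cells at -0.52, in macrophage-like cells at -0.79 and in erythroid-like cells at -1.44, of which the calls in B-like and erythroid-like cells were lost on library totals (adjusted p = 0.169 and 0.0746) and that in B-like cells also without C and D (adjusted p = 0.149). Ass1, Arg1 and Slc25a15 were lower at P3 in erythroid-like cells too, the last not on library totals (adjusted p = 0.115) and Arg1 not without C and D (adjusted p = 0.16). In endothelial-like cells none of the members passed, with 28.3% of genes called by edgeR (13.9% higher and 14.4% lower), while without C and D Ass1, Asl and Arg1 were higher at 1.12, 1.04 and 1.55 (adjusted p = 0.0278, 0.049 and 0.0275). In megakaryocyte-like cells, where 44.5% of genes were called (20.4% higher and 24% lower), no member passed the filter on low counts. Further calls appeared when libraries were left out. In the fits without A and B, Arg1 was lower in B-like (-1.56, adjusted p = 0.0187), basophil and mast-like (-2.41, 0.046), monocyte-like (-1.09, 0.0479) and neutrophil-like cells (-1.49, 0.00844), and Ass1 in macrophage-like cells (-1.74, 0.00163). Of all genes in these classes, 40.6, 33.9, 41.4, 40.9 and 41.5% were called without A and B. The Arg1 calls rest on low counts: the lowest P3 library was at 0.389, 0, 0.754 and 0.809 CPM of Arg1 in the B-, basophil and mast-, monocyte- and neutrophil-like cells. Without C and D, Ass1 was higher in B-like (0.73, adjusted p = 0.0052) and neutrophil-like cells (0.55, 0.0418), with 43.4 and 38% of genes called.

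Nags was also measured outside hepatocytes. A cluster left unnamed at each stage held 6.23 ± 4.12 CPM (SD, n = 5) at E16.5 and 12.9 ± 5.56 CPM (SD, n = 4) at P3, above the means of all other classes but hepatocyte-like cells. In library C it held 18.0 CPM, above the 5.79 CPM of that library's hepatocyte-like cells. Its leading genes were C1qtnf12, C1qbp and Hspd1 at E16.5 and Ins2, Ins1 and Mt2 at P3. Only 1 marker of its closest class reached the level set for naming, too few for a name. Cps1 and Otc were at 0.650 ± 0.335 and 0.834 ± 0.510 CPM there at P3 (SD, n = 4). Hemoglobin made up a median of 10.9% of UMIs in this cluster at E16.5 and 0.375% at P3. The part of this in the Nags levels was not tested. Nags fell in neutrophil-like cells by 1.89 on the log2 scale (adjusted p = 0.00191), from a mean of 0.832 to 0.209 CPM, but with doublets kept it did not pass, at -0.36 (adjusted p = 0.475). Arg1, which macrophages and innate lymphoid cells can also express, was at 12.5 ± 4.37 CPM (SD, n = 4) in the T and NK-like cells of P3. It was at 6.95 ± 3.83 CPM in macrophage-like and 11.0 ± 11.45 CPM in endothelial-like cells. The T and NK-like sums held 52 to 190 member UMIs per library, of which Arg1 made up 11.2 to 24.8%.

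Across 101 sums of class and library, likeness was measured as Pearson r of log2(CPM + 10). The genes most like Otc were F2 (prothrombin), Plg (plasminogen) and Gc (vitamin D binding protein), with r of 0.987, 0.986 and 0.985, and for Cps1 they were Plg at 0.972, Apob at 0.969 and Otc at 0.969. Among the members, Asl and Nags were the least alike, with r of 0.527, and Asl was closest to Ass1, at 0.817. The gene closest to Asl was Pcyt2, a gene of phospholipid synthesis, at 0.881. The closest genes were Aldh1b1 at 0.930 for Ass1, Akr1d1 at 0.962 for Arg1, Aqp11 at 0.890 for Nags, Sephs2 at 0.909 for Slc25a13 and Glyctk at 0.927 for Slc25a15. The sums share libraries and depth, and hepatocyte-like cells stand apart in them, so these values describe the pattern over classes only.

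By genotype at E16.5, no member passed the test between Jag1Ndr/Ndr and the other libraries. In hepatocyte-like cells Cps1 was at 466 and 120 CPM in the Jag1Ndr/Ndr libraries and at 282, 542 and 213 CPM in the other 3, so 1 Jag1Ndr/Ndr library lay within the range of the others and 1 below it. Asl was at 64.4 and 65.2 CPM against 68.1, 57.2 and 54.8 CPM. The log2 fold changes of the 8 genes ran from -0.16 (Cps1, SE 0.518) to 0.18 (Arg1, SE 0.290), with the smallest SE at 0.157 (Asl). Between them were Nags at -0.15, Slc25a15 at -0.14, Otc at -0.02, Ass1 at 0.09, Slc25a13 at 0.12 and Asl at 0.17. Of all genes tested, 0% were called by edgeR in hepatocyte-like cells (0 of 11413) and over all cells (0 of 16148). Unadjusted p was under 0.05 for 217 and 172 genes, none a member, and DESeq2 called 4 and 6 genes, none a member. No test was made at P3, where libraries C (Jag1Ndr/Ndr) and D (Jag1Ndr/+) were 1 of each kind. There Nags was at 5.79 CPM (95% exact Poisson interval 1.88 to 13.5) in C and 22.7 CPM (13.4 to 35.9) in D, and Ass1 was at 146 CPM (122 to 174) and 206 CPM (175 to 240); the intervals cover counting error only.

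Of 19 genes of ammonia and amino group handling around the cycle, 9 were higher and 5 lower at P3 in hepatocyte-like cells, with a median log2 fold change of 0.53. Without libraries A and B, 5 were higher and 3 lower, and without C and D, 8 were higher and 3 lower. Gpt (alanine aminotransferase) was at 2.34 (SE 0.352, edgeR adjusted p = 0.000187) and Car5a, the mitochondrial carbonic anhydrase that supplies bicarbonate to Cps1, at 1.84 (adjusted p = 0.00166). Both were apart between stages, but without libraries A and B neither passed (adjusted p = 0.160 and 0.123). Glul (glutamine synthetase), the other main route for ammonia in liver, was at 1.24 (SE 0.157, adjusted p = 4.62e-05), from 120 ± 19.9 to 221 ± 20.7 CPM (SD, n = 5 and 4). Glud1, which releases ammonia from glutamate, did not pass, at 0.12 (adjusted p = 0.654). Aldh18a1 at -1.65, Slc38a2 at -0.71 and Gpt2 at -0.58 were lower, while Got1 was higher at 1.08. Slc38a2 did not pass without A and B (adjusted p = 0.217), nor Gpt2 without C and D (adjusted p = 0.168) or in the low-hemoglobin clusters (adjusted p = 0.0628). The other carrier of aspartate and glutamate, Slc25a12 (aralar), was lower at -0.72 (adjusted p = 0.0393), from 13.3 ± 2.47 to 5.81 ± 1.61 CPM (SD, n = 5 and 4), against the rise of Slc25a13. It did not pass without libraries A and B (adjusted p = 0.0507) or without C and D (adjusted p = 0.167), nor in the low-hemoglobin clusters (adjusted p = 0.126).

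Of 12 genes of arginine use outside the cycle, 8 were tested, 2 were higher and 3 lower, with a median of -0.58. Without A and B, 2 were higher and 1 lower, and without C and D, 1 was higher and 4 were lower. Agmat, which acts on agmatine, a product of arginine, rose from 26.7 ± 2.93 to 107 ± 26.2 CPM (SD, n = 5 and 4), at 2.33 on the log2 scale (SE 0.175, edgeR adjusted p = 4.61e-07). Gatm, the first enzyme of creatine synthesis, fell from 41.6 ± 16.1 to 9.34 ± 5.95 CPM, at -1.77 (SE 0.395, adjusted p = 0.00326), and Gamt, the second, was higher at 0.74. The arginine transporter Slc7a1 was lower at -0.73 and Azin1 at -0.58, but neither passed without libraries A and B (adjusted p = 0.382 and 0.0945), and Gamt did not pass without C and D (adjusted p = 0.0952). In the low-hemoglobin clusters 2 genes of this list were higher and 4 lower, with Slc7a1 at -1.65 (adjusted p = 0.00227) and Azin1 at -1.29 (adjusted p = 3.06e-05). The fourth was Odc1, which makes putrescine from ornithine, at -1.32 there (adjusted p = 6.29e-05) and -0.42 in the whole class (adjusted p = 0.176), named after its values were seen. Arg2, the mitochondrial arginase, was not tested, with a mean of 0.135 CPM at E16.5 and no UMI in hepatocyte-like cells at P3.

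Of 22 genes of amino acid breakdown in hepatocytes, 19 were tested, 11 were higher and 2 lower, with a median of 0.79. Tat (tyrosine aminotransferase) was at 4.90 (SE 0.324, edgeR adjusted p = 1.56e-07), from 1.40 ± 0.799 to 33.0 ± 9.65 CPM. Hpd, the next enzyme of tyrosine breakdown, was at 3.04, Mat1a, which makes S-adenosylmethionine, at 2.59, and Haao at 1.29. Cth at -0.80 and Aass at -1.06 were lower, Cth not without C and D (-0.44, adjusted p = 0.235). Of 19 regulators and hormone receptors, 9 were higher and 2 lower, with a median of 0.21. Without A and B, 6 were higher and 2 lower, and without C and D, 7 and 0. The glucagon receptor gene Gcgr was at 2.1 (SE 0.183, adjusted p = 1.79e-06), from 12.2 ± 3.20 to 42.4 ± 7.77 CPM, Creb3l3 at 1.83, Onecut1 at 2.56 and Nr1h4 at 1.25. Cebpb at -1.10 and Foxa1 at -1.79 were lower, but neither passed without C and D (-0.56 and -1.38, adjusted p = 0.142 and 0.0756), and without A and B they were at -2.66 and -3.56.

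Genes that mark the zones of the adult liver were counted in 2 lists. Of 10 periportal genes other than the members, 8 were tested, 5 were higher and 1 lower, with a median of 1.35, and of 10 perivenous genes, Glul included, 7 were tested and 5 were higher, with a median of 1.27. Among the periportal ones Pck1 (gluconeogenesis) was at 3.49 ± 4.71 CPM at E16.5 and 471 ± 146 CPM at P3, Hal at 1.77, Sdsl at 1.63 and Cyp2f2 at 2.54 on the log2 scale, and Ctsc was lower at -1.09, though not without C and D (adjusted p = 0.199). Among the perivenous ones Cyp2e1 was at 7.78 ± 5.97 CPM at E16.5 and 389 ± 61.7 CPM at P3, Cyp1a2 was at 0.0856 ± 0.120 and 27.3 ± 16.6 CPM, and Cyp27a1 was at 1.53 on the log2 scale, and at 0.61 without A and B (adjusted p = 0.302). In the fit of all libraries, these lists are set beside the 38.4% of genes called and the median of -0.02 over all genes given above. Counts without A and B belong beside 12.1% of all genes called higher and 11% lower, and those without C and D beside 18.4 and 15.6%. Counts in the low-hemoglobin clusters belong beside 21.1 and 20.5%. Nothing particular to a list was tested.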

How the data were processed

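The deposited files were raw UMI counts per gene and barcode, written by the authors' 10x Genomics software without normalization (versions 3.0.2 at P3 and 3.1.0 at E16.5 per the file headers). The submitters' processing notes name Cell Ranger 2.1.1, Seurat, R 4.1.2 and the build mm10. The aligner's annotation and strand options are not given in the sources used here. The gene lists held 31053 (E16.5) and 22597 (P3) genes, and 22519 were in both.

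Barcodes under 1000 UMIs or above 15% mitochondrial UMIs were left out. Doublets were marked by Scrublet in scanpy 1.11.5 (3.67 to 31.8% of barcodes per library) and left out. Total UMIs per matrix were 30087760 to 288658950. Cells were clustered per stage with Leiden (2000 variable genes, 30 components, resolution 1), with the members left out, and a cluster was called "X-like" from marker lists. Counts were summed per class and library and tested with edgeR 4.0.16 (TMM, filterByExpr, glmQLFTest). DESeq2 1.42.0 was an alternative. Intervals are 95% exact Poisson or Clopper-Pearson. Scripts were tested on simulated data.

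The rule named the 8 members in every comparison. In classes other than hepatocyte-like cells the text names those called and only some of the others. From 6 gene lists, the 4 genes with the lowest adjusted p in each direction were named, plus Car5a, Glud1, Glul, Arg2 and Slc25a12, and up to 3 of the most correlated genes for each member. The lists were ammonia and amino group handling, arginine use, amino acid breakdown, regulators, periportal genes and perivenous genes. A gene that this rule would name is not reported here. The members and lists were chosen with earlier results of these data known. Alternatives were the normalization, the count filter, doublets, a minimum of 2000 UMIs per cell, hemoglobin genes, the hepatocyte class, left-out libraries and the replicate number as a block. Those for C and D, for A and B in other classes, Xist, library totals and cells up to 50% mitochondrial UMIs were chosen after seeing the data.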

Additional observations from a re-analysis of the deposited data

Results flagged for a closer look

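In hepatocyte-like cells at P3, Asl in library C, at 162 CPM, lay apart below the other 3 libraries, of which the nearest was at 215 CPM. Arg1 in library A, at 411 CPM, lay apart above the other 3, of which the nearest was at 175 CPM. Both gaps took up more of the group's range than Dixon's 95% limit allows. In all, 32 groups of libraries were examined in this way and 2 stood out, close to the 1 in 20 that chance gives. Without library C, the stage difference of Asl was 2.15 on the log2 scale. Without library A, that of Arg1 was 0.70. In the low-hemoglobin clusters Asl was at 287 CPM in library C, above library D at 268 CPM, so C was not the lowest there. Arg1 in library A was at 622 CPM in those clusters, and the nearest library was at 268 CPM.

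The log2 ratio of hepatocyte-like to monocyte-like CPM, without TMM factors, differed between P3 and E16.5. The difference was 0.86 for Asl, 0.91 for Slc25a13, 1.86 for Otc and 1.64 for Arg1. All 4 gave the smallest p of the exact permutation test over libraries, 0.0159, and 0.0238 after adjustment over the 6 genes compared, and the stage differences within each class had been seen before. In monocyte-like cells at P3, Otc had 2 to 21 UMIs per library and Arg1 3 to 45, at mean levels not shown to be above those of erythroid-like cells, so no difference between the classes was read for these 2. For Slc25a13 the 2 classes changed in opposite directions, and for Asl both rose.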

How the results depend on the processing

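In hepatocyte-like cells, 4 members were called by stage (38.4% of all genes called), against 7 without P3 libraries C and D (34%), 7 in the low-hemoglobin clusters without C and D (35.4%), 2 without the E16.5 libraries high in Xist (29.6%) and 3 to 6 with each library left out in turn (31.9 to 37.3%). Over all cells, 5 were called (53.1%), against 3 on library totals (54.8%), 3 without C and D (46.9%) and 3 to 6 with each library left out (47.1 to 52.4%). By genotype the count was 0 in each setting run, and 0 to 0 with each library left out, with at most 0.366% of genes called in hepatocyte-like cells and 0.0372% over all cells. Without C and D the counts were 2 in B-like cells (4 with all libraries, 43.4 and 51.4% of genes called), 2 in basophil and mast-like (4, 33.6 and 46.7%), 2 in macrophage-like (4, 46.9 and 53%) and 3 in endothelial-like cells (0, 18.9 and 28.3%). Without A and B only library D was left at P3 in megakaryocyte-like cells, so no call was read there. Cps1 made up 0% of the 54 member UMIs of D and 0 to 30.3% of the 11 to 33 member UMIs of the E16.5 libraries. In endothelial-like cells 1 member was called on library totals (27%) and 1 with doublets kept (28.2%), and in macrophage-like cells 2 on library totals (49.8%). With doublets kept, monocyte-like levels at P3 were 25.4 CPM for Asl, 60.7 CPM for Ass1 and 0.823 CPM for Nags.

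Signs turned in the following fits. For stage in hepatocyte-like cells, Cps1 and Nags were at -0.18 and -0.17 on library totals; Cps1, Ass1 and Nags were at -0.54, -0.62 and -0.44 without libraries A and B, and at -0.26, -0.56 and -0.28 in the low-hemoglobin clusters without them. Cps1 was at -0.20 without the libraries high in Xist. With each library left out, Cps1 ranged from -0.23 to 0.42 and Nags from -0.12 to 0.42. Over all cells, Ass1 and Nags were at 0.0561 and 0.33 on library totals, and Nags ranged from -0.39 to 0.0456. On library totals, Slc25a15 was at 0.0704 in B-like, 0.0491 in basophil and mast-like and 0.0253 in macrophage-like cells, Slc25a13 at 0.14 in basophil and mast-like and 0.0181 in endothelial-like cells, Asl at 0.19 in erythroid-like and Arg1 at 0.17 in macrophage-like cells. Without A and B, Arg1 was at -1.56 in B-like (adjusted p = 0.0187) and -1.50 in endothelial-like cells, Ass1 at -0.37 in endothelial-like and -0.35 in neutrophil-like and Nags at -0.0810 in erythroid-like cells. Without C and D, Slc25a13 was at 0.0784 in basophil and mast-like and 0.0580 in endothelial-like, Slc25a15 at 0.0388 in basophil and mast-like and 0.0885 in macrophage-like, Cps1 at 0.28 in endothelial-like, Asl at 0.0574 in erythroid-like, Ass1 at 0.37 in macrophage-like and Arg1 at 0.26 in macrophage-like and 0.17 in neutrophil-like cells. For genotype over all cells, Ass1 was at 0.0069 with DESeq2 and with RLE size factors, at 0.0103 without hemoglobin genes and at 0.0404 with the replicate block, and Asl, Arg1 and Slc25a13 were at -0.0371, -0.12 and -0.17 on library totals. With each library left out, genotype values in hepatocyte-like cells ranged from -1.44 to 0.51 (Cps1), -0.22 to 0.15 (Otc), -0.29 to 0.12 (Slc25a15) and -0.44 to 0.61 (Arg1), and over all cells from -1.28 to 0.51 (Cps1), -0.23 to 0.13 (Otc), -0.11 to 0.22 (Ass1), -0.37 to 0.45 (Arg1) and -0.0693 to 0.61 (Nags). The cause was not tested.

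Same-numbered libraries had r of -0.168 to 0.111 over 11 pairs by stage. Within E16.5 they had 0.277, -0.0552 and 0.174. The r of differently numbered libraries there had the same sizes and opposite signs by construction. The 2 Jag1Ndr/Ndr libraries entered as deviations from their own mean, so those values add nothing on pairing. Not every same-numbered pair was over 0.1, so the numbers were not taken to pair the samples. With the replicate block, 4 members were called by stage in hepatocyte-like cells (37.3% of genes called) and 5 over all cells (51.5%). By genotype 0 were called in both (0%). Of the log2 fold changes under other settings, 773 kept their direction and side of the threshold, 57 changed sign, 37 lost a call and 33 gained one. Libraries were not left out in turn in classes other than hepatocyte-like cells. The number of libraries and, at P3, 150 to 530 hepatocyte-like cells per library limited the precision.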
